A study of Mus musculus with 6 samples.

Results

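Inhibitory receptors of T cells were followed through 8 genes, Pdcd1, Ctla4, Lag3, Havcr2, Btla, Cd160, Kir3dl1 and Cd200, out of 19938 genes that the array measured under a single symbol. Members were chosen by name, and each was represented by its array row with the highest mean. Cd200 was dim on every array and was not tested, which left 7 of 8 members among the 10021 genes tested.

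RNA came from splenic CD8+ T cells (CD8-TC) of Runx3-/- and WT mice, in 3 biological repeats per genotype. Each repeat had 1 Affymetrix mouse gene ST array (KO1 to KO3 and WT1 to WT3). The transcription factor Runx3 belongs to the RUNX family and acts in cytotoxic lymphocytes, and the study set out to find the genes that depend on it. Both groups were ICR males of 6 weeks per the labels, and their cells were stimulated with anti-CD3 and anti-CD28 for 2 days and then kept for 4 days in IL-2 at 100 units per ml. WT cells were selected on anti-CD8 beads only, whereas Runx3-/- cells were also sorted by flow cytometry to remove CD11c+ dendritic cells before culture and CD4+CD8- cells after it, so the effects of genotype and of sorting cannot be told apart.

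Inhibitory receptors set a limit on T cell activation. Most of them bind a ligand on a neighbouring cell and recruit phosphatases that oppose signals of the T cell receptor and CD28, and several appear on the cell surface only after activation. Sustained expression of several of them together is known from exhausted CD8-TC in chronic infection and tumours, while single receptors also mark recently activated effector cells.

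Values are log2 RMA values, and a difference is the mean of the KO-labelled arrays minus the mean of the WT arrays. The median over the whole table, 4.26, stands in for the background level, which the sources used here do not give. Genes were counted at an adjusted p of 0.05 and at the looser cutoffs of the study, at least 1.5-fold with an unadjusted p of 0.05. The latter are called the study's threshold below. The p is that of limma and the table median is the filter, so a gene past it need not be a call of the study. At these cutoffs 4 receptors and 832 of all tested genes passed in limma, against 3 and 508 in an unmoderated linear model. Runx3 itself stood at 8.91, 9.11 and 9.27 in KO1, KO2 and KO3, against 8.77, 8.26 and 9.16 in WT1, WT2 and WT3 (difference 0.37, limma adjusted p = 0.521). These ranges overlapped. Which exons the mutation removes is not given in these sources, so this value checks nothing about the labels and the arrays are called KO-labelled. Xist stood at 10.6 in WT1, which is labelled male, and at 3.31 to 3.40 on the other arrays, while WT1 had 3.93, 3.68 and 3.91 for Eif2s3y, Kdm5d and Uty, which are Y-linked and were higher on every other array. KO2 stood apart in 19 genes of the G2/M phase, with a mean deviation of -1.44 from each gene's own mean, where the other arrays lay between -0.33 and 0.71. Of 7 T cell markers, Cd8a and Cd8b1 among them, all 7 were above the table median on every array, Cd8a between 10.7 and 11.5.

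Promoter windows are printed for the 4 receptor genes past the study's threshold, because RUNX proteins are known to bind the sequence TGTGGT. Its variants are TGTGGC, which ends in C, then TGCGGT, with C in the middle, and TGCGGC, with both changes. The windows run from 250 bases before to 50 bases after an annotated start site (RefSeq, GRCm38.p6) and are written 5′ to 3′ along the gene. Capitals mark a match, and a match on the opposite strand appears as its complement read backwards.
Kir3dl1, chrX:136517749-136518048, + strand: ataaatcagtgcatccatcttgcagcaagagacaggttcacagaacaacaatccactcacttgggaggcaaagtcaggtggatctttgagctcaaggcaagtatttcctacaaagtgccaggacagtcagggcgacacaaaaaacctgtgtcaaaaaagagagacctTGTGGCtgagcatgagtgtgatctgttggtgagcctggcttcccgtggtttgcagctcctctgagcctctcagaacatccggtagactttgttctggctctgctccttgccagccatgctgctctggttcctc
Cd160, start 1, chr3:96829302-96829601, - strand: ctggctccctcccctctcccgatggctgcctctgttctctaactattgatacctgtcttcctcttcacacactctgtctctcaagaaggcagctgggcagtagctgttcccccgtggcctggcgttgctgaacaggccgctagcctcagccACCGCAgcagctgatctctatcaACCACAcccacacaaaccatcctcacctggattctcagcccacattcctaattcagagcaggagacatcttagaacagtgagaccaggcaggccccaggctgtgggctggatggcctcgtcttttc
Cd160, start 2, chr3:96814472-96814771, - strand: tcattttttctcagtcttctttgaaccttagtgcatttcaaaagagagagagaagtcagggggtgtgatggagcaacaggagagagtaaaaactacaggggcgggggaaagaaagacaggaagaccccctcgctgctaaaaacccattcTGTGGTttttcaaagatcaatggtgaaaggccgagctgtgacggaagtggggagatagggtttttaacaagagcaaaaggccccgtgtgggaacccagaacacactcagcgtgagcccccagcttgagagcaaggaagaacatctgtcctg
Havcr2, chr11:46454681-46454980, + strand: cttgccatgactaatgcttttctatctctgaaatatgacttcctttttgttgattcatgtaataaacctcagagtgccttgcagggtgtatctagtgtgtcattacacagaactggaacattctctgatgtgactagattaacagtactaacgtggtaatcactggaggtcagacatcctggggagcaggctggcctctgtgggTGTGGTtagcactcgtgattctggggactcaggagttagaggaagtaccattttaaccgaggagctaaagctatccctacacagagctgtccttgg
Btla, chr16:45224087-45224386, + strand: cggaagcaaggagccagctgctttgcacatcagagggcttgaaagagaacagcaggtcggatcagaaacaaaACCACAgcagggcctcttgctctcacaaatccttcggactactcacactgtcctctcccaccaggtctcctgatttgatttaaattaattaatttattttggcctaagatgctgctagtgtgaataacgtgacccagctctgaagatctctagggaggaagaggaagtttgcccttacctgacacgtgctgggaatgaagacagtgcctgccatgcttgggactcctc

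Of the 8 members, 7 had a window in the reference, Cd160 had a pair of them, and Lag3 had none. A match stood in at least 1 window of 4 members, and none stood in the windows of Pdcd1, Ctla4 and Cd200. Kir3dl1 carried TGTGGC at -83, counted from the start site to the first base of the match as printed. Havcr2 carried TGTGGT at -46 and Btla carried it on the opposite strand at -178. The first start of Cd160 had TGCGGT at -99 and TGTGGT at -76, both on the opposite strand, and the second start had TGTGGT at -101. The letters are common. Of all 32851 windows of this length, 16.8% held TGTGGT, 18.9% held TGTGGC, 6.45% held TGCGGT, 12.4% held TGCGGC and 45.2% held any of the 4, with both strands searched. A match describes the sequence and is not a binding site, and the array does not measure binding.

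**Figure D1:**
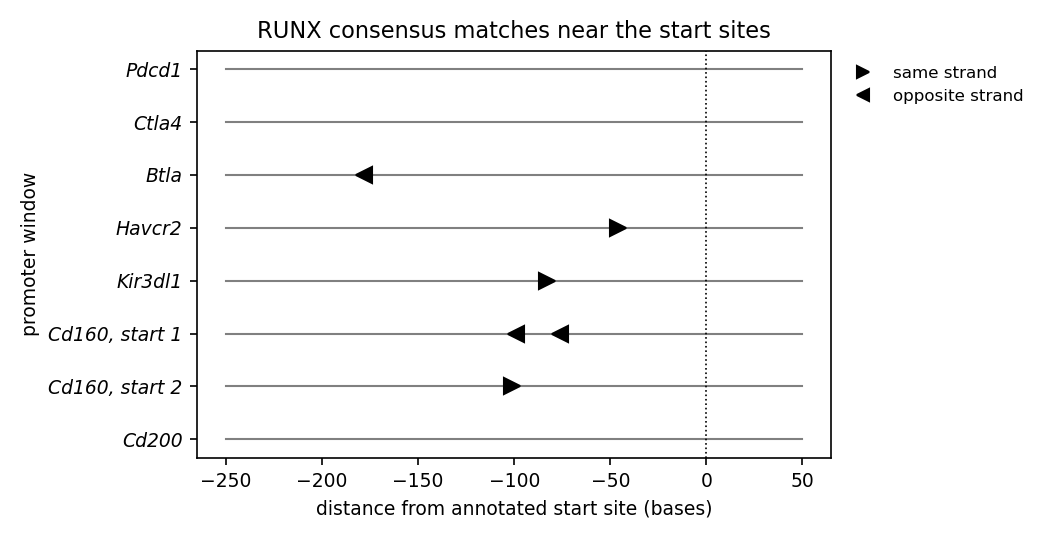
Positions of the RUNX consensus letters in the 8 promoter windows of 7 inhibitory receptor genes, as distance in bases from the annotated start site (dotted line), with triangles pointing right for the gene's own strand and left for the opposite strand. Matches lie between -178 and -46 in 5 windows of 4 genes, and the windows of Pdcd1, Ctla4 and Cd200 hold none.

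Among the 7 tested receptors, 1 passed an adjusted p of 0.05, Kir3dl1, which was lower in KO-labelled cells, and 0 passed without KO2, KO3, WT1 or WT3, where 3, 3, 5 and 3 receptors had an unadjusted p under 0.05 in limma. This threshold was passed by 0.629% of all tested genes, and by 0.359% as lower genes. At the study's threshold 1 receptor was higher (Btla) and 3 were lower (Kir3dl1, Cd160 and Havcr2), where 8.30% of all tested genes passed, 3.97% higher and 4.33% lower. Values under the table median have no order, so they were set to it for a count of groups that did not overlap, a choice made after seeing the data. The 3 KO-labelled arrays then lay above the 3 WT arrays for Btla and below them for Kir3dl1 and Cd160, 3 of the 7, against 21.2% of tested genes, 11.0% with KO-labelled arrays above and 10.2% with KO-labelled arrays below. Taken as deposited, the groups were apart for 5 of the 7, Havcr2 and Pdcd1 included, and for 22.4% of tested genes, 11.6% above and 10.9% below. The median difference over all 8 receptors was -0.25 and over the 7 tested -0.42, which is the value of Pdcd1, with -0.01 over all tested genes. Pdcd1, Havcr2 and Kir3dl1, 3 of the 7, reached the table median in WT arrays only, so that the filter kept them through the higher group. The array reads RNA of a whole culture, so fewer cells that express a gene and less RNA of it per cell cannot be told apart for any value that follows.

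**Figure D2:**
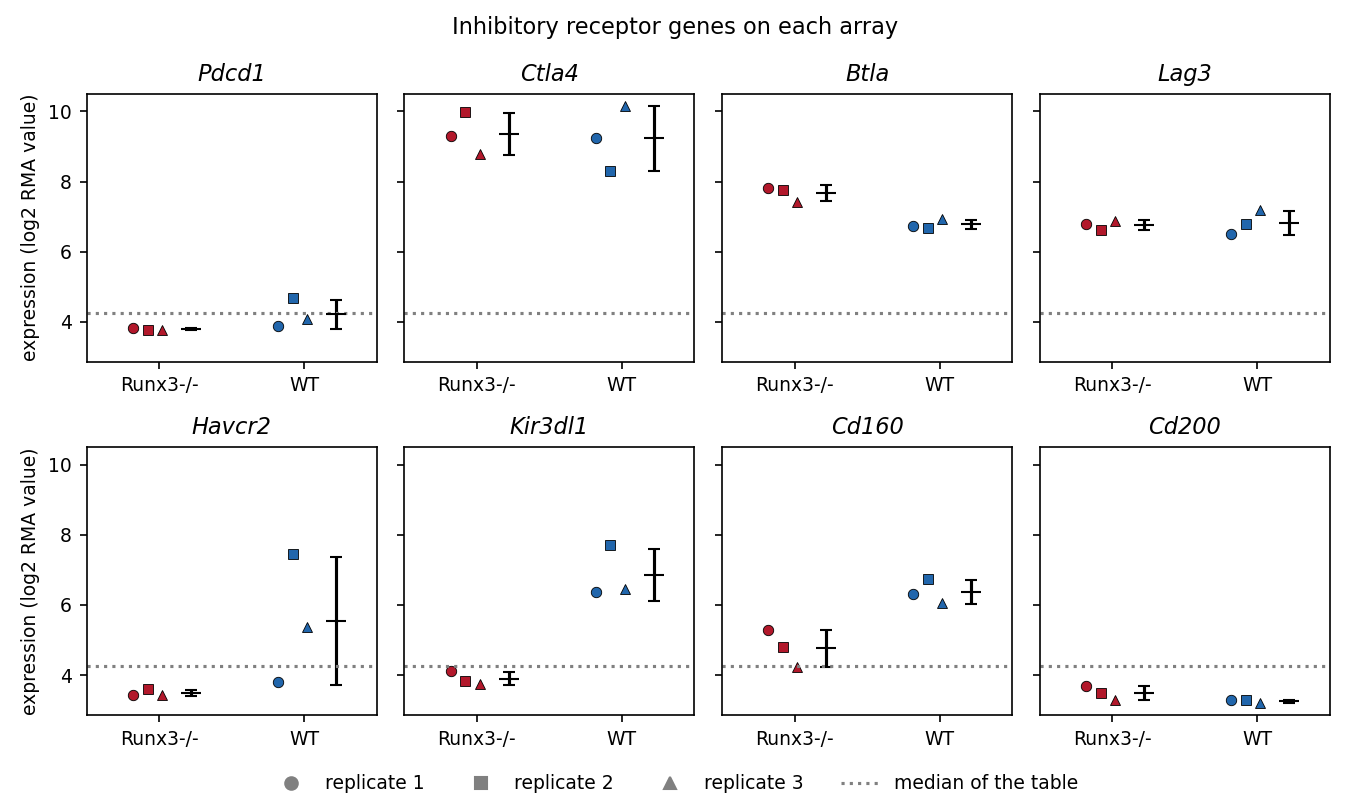
Log2 RMA values of the 8 receptor genes on each array, KO-labelled (red) left of WT (blue), with symbols for replicates 1 to 3, bars for mean ± SD (n = 3 per group) and a dotted line for the table median of 4.26. Kir3dl1 and Cd160 are lower on every KO-labelled array than on any WT array, Btla is higher, and Ctla4 and Lag3 overlap.

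Kir3dl1, on chromosome X, encodes a killer-cell immunoglobulin-like receptor. In humans such receptors recognise MHC class I and restrain NK cells and some T cells. Kir3dl1 stood at 4.11, 3.84 and 3.74 in KO1, KO2 and KO3, and at 6.38, 7.71 and 6.45 in WT1, WT2 and WT3. All 3 KO-labelled values lay below the table median and all 3 WT values above it, with 2.27 log2 units between the nearest arrays. The means were 3.90 ± 0.19 in KO-labelled and 6.85 ± 0.75 in WT arrays (SD, n = 3 each). The difference of -2.95 (SE 0.36, 95% interval -3.79 to -2.10, limma adjusted p = 0.0253) ranked 29 by p among the tested genes. With KO-labelled values set at the table median, Kir3dl1 was 6.00-fold lower. This is a point estimate from the WT mean without an interval, and the table median only stands in for background. Log2 values near background compress a change. The direction of Kir3dl1 held in all 19 alternative settings, from -3.18 to -2.49, and so did the study's threshold. The adjusted p was under 0.05 in 11 of them and ranged from 0.00231 to 0.270. It was 0.0841 without KO2, 0.111 without KO3, 0.0578 without WT1 and 0.0780 without WT3, with differences of -2.92, -2.87, -3.18 and -3.14. WT1, the array with high Xist, held the lowest WT value of this X-linked gene, and the difference was larger in size without it.

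Kir3dl2, a close relative of Kir3dl1 on the same chromosome, stood at 3.57, 4.06 and 3.88 in KO1, KO2 and KO3, against 4.67, 6.72 and 4.26 in WT1, WT2 and WT3. Its groups did not overlap as deposited, but WT3 was only just at the table median and no KO-labelled array reached it. Kir3dl2 thus passed the filter through WT arrays only. WT2 was the highest array for both genes. The difference of -1.38 (SE 0.60, limma adjusted p = 0.361) passed neither threshold. The promoter windows of both genes were alike at 268 of 273 aligned bases (98.2%), with the windows shifted by 27 bases. Whether probes of one gene also capture RNA of the other is not known from the table, so the values of this pair are uncertain.

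Cd160, on chromosome 3, encodes an immunoglobulin-superfamily receptor of NK cells and CD8-TC that binds HVEM. Its values were 5.28, 4.79 and 4.22 in KO1, KO2 and KO3, and 6.32, 6.75 and 6.05 in WT1, WT2 and WT3. Every KO-labelled array was lower than every WT array, by at least 0.77, and only KO3 was under the table median. The difference was -1.61 (SE 0.30, 95% interval -2.32 to -0.89), a 3.05-fold lower level. Cd160 passed the study's threshold but not the adjusted one (limma adjusted p = 0.0838). In 19 alternatives the difference lay between -1.87 and -1.34 and the study's threshold was passed each time, while the adjusted p ranged from 0.0123 to 0.646.

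Kir3dl1 and Cd160 are also known from NK cells, so the NK cell markers are given beside them. Of 8 such markers, 4 were below the table median on every array, Ncr1 and Klra8 among them, which stood at 3.30 to 3.41 and 3.25 to 3.43 in KO-labelled cells and at 3.49 to 3.51 and 3.31 to 3.36 in WT cells. Klrb1c was the only marker of the 4 tested to pass the study's threshold, at a difference of -1.56 (limma adjusted p = 0.169). No KO-labelled array reached the table median for Klrb1c, Klre1 or Klri2, so these markers passed the filter through WT arrays only. Summed on the linear scale, the 8 markers came to 120 to 147 in KO-labelled arrays and 145 to 191 in WT arrays, the 4 dim markers included. The part of NK cells in the differences of Kir3dl1 and Cd160 was not tested. The only B cell marker to be tested, Cd79b, was also lower (-0.93, limma adjusted p = 0.148), while 5 other B cell markers were below the table median on every array. Values there have no order. As deposited, the means of Cd79a, Ms4a1, Pax5 and Blnk were higher in KO-labelled arrays and that of Cd22 was lower. The 6 markers summed to 83.3 to 98.4 in KO-labelled and 102 to 127 in WT arrays, a sum that follows Cd79b and is no separate result.

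Btla, on chromosome 16, encodes another receptor for HVEM, found on B and T cells. It was the only tested receptor with all KO-labelled arrays above the WT arrays, at 7.83, 7.76 and 7.42 in KO1, KO2 and KO3 and at 6.73, 6.68 and 6.92 in WT1, WT2 and WT3. The nearest arrays, KO3 and WT3, were 0.50 apart, and both groups lay well above the table median. The means of 7.67 ± 0.22 in KO-labelled and 6.78 ± 0.13 in WT arrays (SD, n = 3 each) differed by 0.90 (SE 0.16, 95% interval 0.51 to 1.28), or 1.86-fold. Btla passed the study's threshold and missed the adjusted one (limma adjusted p = 0.0748). In 19 alternatives the difference stayed between 0.76 and 1.02, always past the study's threshold, and only array weights brought the adjusted p under 0.05 (0.0243).

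Of 3 markers of CD4 helper cells, Cd40lg never reached the table median. Cd4 (0.95, limma adjusted p = 0.250) and Zbtb7b, the gene of ThPOK, a factor that directs cells to the helper lineage (0.64, limma adjusted p = 0.342), were higher at the study's threshold. After quantile or median normalization 1 of these 2 passed, the groups of Zbtb7b overlapped, and it missed the threshold without KO1, KO3, WT1 or WT2. The study names both genes as dependent on Runx3, which makes the direction of these markers no independent evidence. The 3 markers summed to 169 to 215 in KO-labelled arrays and 90.1 to 159 in WT arrays on the linear scale, although the KO-labelled cultures had been depleted of CD4+CD8- cells by sorting. Their part in the difference of Btla was not tested. Of the 4 tested markers of regulatory T cells, Foxp3 included, 0 had an unadjusted p under 0.05 in limma. Foxp3 stood at 5.53, 5.33 and 6.70 in KO-labelled and 6.31, 6.70 and 5.52 in WT arrays.

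Havcr2, on chromosome 11, encodes TIM-3, which binds galectin-9 and other ligands and restrains T helper 1 and cytotoxic cells. It stood at 3.43, 3.59 and 3.43 in KO1, KO2 and KO3, and at 3.80, 7.45 and 5.37 in WT1, WT2 and WT3. The KO-labelled arrays were all under the table median and close together, whereas the WT arrays were spread over 2 above and 1 below it. WT1 and the 3 KO-labelled arrays therefore have no order among them. The difference was -2.06 (SE 0.81, 95% interval -3.97 to -0.15, limma adjusted p = 0.324), and the within-group SD exceeded that of 99.7% of tested genes. The study's threshold was passed and the adjusted one was not.

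The size of the Havcr2 difference rested on single WT arrays. It was -1.10 without WT2 and -2.93 without WT1. The study's threshold was passed in 9 of 19 alternatives. The test against 1.5-fold was counted among those missed, although its p tests another hypothesis. In the unmoderated linear model p was 0.124. Among the fits with 1 array left out the threshold was missed without KO1, KO2, KO3 or WT3. Havcr2 was lower in all 19.

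Pdcd1, on chromosome 1, encodes PD-1, the receptor for PD-L1 and PD-L2. Its values were 3.82, 3.77 and 3.77 in KO1, KO2 and KO3, against 3.87, 4.67 and 4.09 in WT1, WT2 and WT3. Only WT2 reached the table median, so Pdcd1 was tested on the strength of that array, and the other 5 values have no order. The difference was -0.42 (SE 0.22, limma adjusted p = 0.419) and -0.20 without WT2. Without WT1 it was -0.59 and passed the study's threshold.

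Ctla4, on chromosome 1, encodes the receptor that competes with CD28 for CD80 and CD86. It stood at 9.30, 9.98 and 8.78 in KO1, KO2 and KO3 and at 9.25, 8.31 and 10.2 in WT1, WT2 and WT3. All 6 arrays were far above the table median and the groups overlapped fully, with the highest and the lowest value both in WT arrays. The difference was 0.11 (SE 0.50, 95% interval -1.06 to 1.29, limma adjusted p = 0.938), an interval that holds more than a 2-fold change either way. Leaving out 1 array moved it between -0.35 and 0.57, so no direction is given. Its within-group SD was larger than that of 96.5% of tested genes.

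Lag3, on chromosome 6, encodes a CD4-like receptor for MHC class II. It was at 6.79, 6.61 and 6.88 in KO1, KO2 and KO3, and at 6.50, 6.79 and 7.18 in WT1, WT2 and WT3. The groups overlapped, and WT arrays were again at both ends. The difference was -0.07 (SE 0.20, 95% interval -0.54 to 0.40, limma adjusted p = 0.904), and its sign varied from -0.23 to 0.11 when 1 array was left out. The interval ends short of a 1.5-fold change in either direction.

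Cd200, on chromosome 16, encodes the ligand of the inhibitory receptor CD200R1 and is itself no signalling receptor. It was listed at 3.68, 3.49 and 3.29 in KO1, KO2 and KO3, against 3.28, 3.28 and 3.20 in WT1, WT2 and WT3, below the table median everywhere. These values have no order between the groups. In a fit with no filter on dim genes, its difference was 0.24 (limma adjusted p = 0.561).

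**Figure D3:**
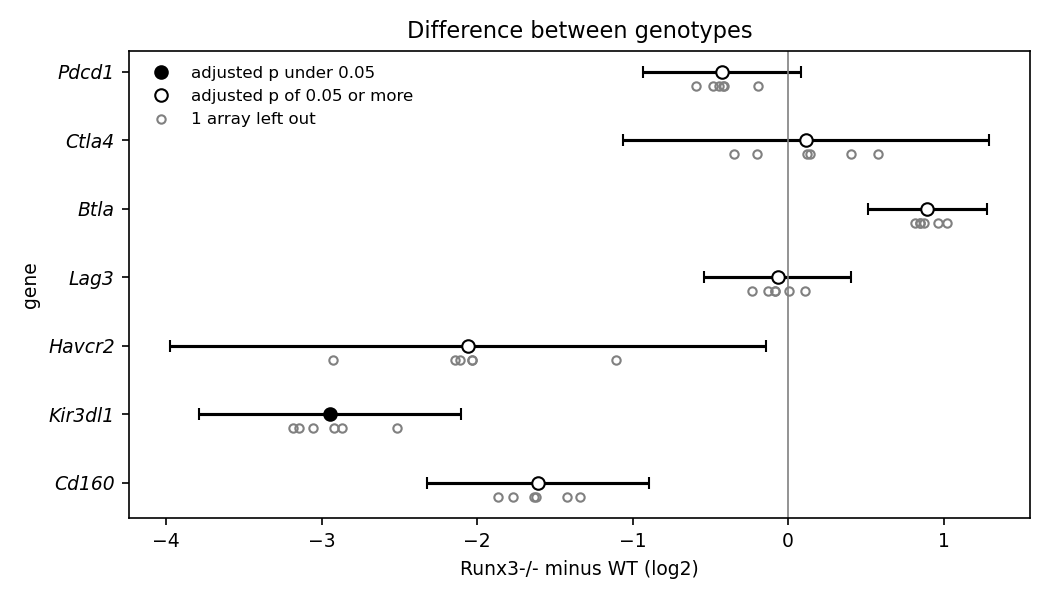
Difference between KO-labelled and WT arrays (log2) of the 7 tested receptor genes, with 95% intervals from limma (filled, adjusted p under 0.05) and, as small circles beneath, the 6 values with 1 array left out. Kir3dl1 stands at -2.95 and Btla at 0.90, the small circles of Havcr2 run from -2.93 to -1.10, and those of Ctla4 and Lag3 fall on both sides of 0.

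The arrays did not take part evenly. WT2 was the highest WT array for 4 of the 7 tested receptors, Kir3dl1, Cd160, Havcr2 and Pdcd1, as it was for 37.8% of all tested genes. WT3 was highest for the other 3, Ctla4, Lag3 and Btla, and WT1 for 0 of them, although WT1 was highest for 34.5% of all tested genes. Without both WT2 and KO2 the receptors kept the signs of their differences except Ctla4, which was at -0.67, and Kir3dl1 alone passed the adjusted threshold (-2.49, limma adjusted p = 0.0181). With the G2/M mean as a covariate the values of Kir3dl1, Cd160, Btla and Havcr2 were -2.94, -1.61, 0.89 and -2.06, and Havcr2 then missed the study's threshold.

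Genes with the most similar profile were sought for the 5 receptors whose values spanned at least 1 log2 unit, by the root mean square difference over the 6 arrays after centring each gene. Kir3dl1 ran closest to Gpr55, a G protein-coupled receptor (0.162), and to Ccl3, a chemokine of activated cytotoxic cells (0.237). Both fell, with differences of -2.90 for Gpr55 (limma adjusted p = 0.0143) and -2.87 for Ccl3 (limma adjusted p = 0.00837). The call of Gpr55 was lost without KO3 (adjusted p = 0.0848) or WT3 (0.0512), and that of Ccl3 without KO3 (0.0525). Cd160 ran closest to Rab27b, a small GTPase of vesicle secretion (0.238), and to Dse, a dermatan sulfate epimerase (0.257), which fell by 1.65 (limma adjusted p = 0.0160). Dse held its call only in the fit without KO1, and its adjusted p ran from 0.0545 to 0.0827 without each of the other arrays. The nearest profiles to Btla were those of Pacsin1 and Ppt2 (0.128 each), to Ctla4 those of Arhgap26 (0.262) and Kdm7a (0.269), and to Havcr2 those of Upp1 (0.481) and Tmem37 (0.503), a looser match. The 6 arrays are few, and likeness over them is a description. These genes were picked by their values on the same arrays, so a close match has a similar difference by construction.

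Ligands and binding partners of the receptors moved in both directions. Of 15 genes, 11 were tested, 1 passed the adjusted threshold, and at the study's threshold 2 were higher and 2 lower, with a median difference of -0.06, where 0.629% of all tested genes passed the adjusted threshold and the study's was passed by 3.97% as higher and 4.33% as lower genes. Lgals3, which encodes galectin-3, a galectin known to bind LAG-3, fell. It stood at 6.78, 5.39 and 6.11 in KO1, KO2 and KO3, against 9.52, 10.7 and 9.98 in WT1, WT2 and WT3, with no overlap (difference -3.97, SE 0.41, limma adjusted p = 0.0160). The call was lost without KO3 (adjusted p = 0.0848) or WT3 (0.0780), with the difference between -4.31 and -3.62 over all arrays left out in turn.

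The CTLA-4 ligands differed in opposite directions. Cd86 stood at 6.57, 4.91 and 5.91 in KO-labelled arrays and 3.87, 3.92 and 4.45 in WT arrays (difference 1.72, limma adjusted p = 0.148). Among the WT arrays only WT3 reached the table median for Cd86, so the size of its difference is uncertain. Cd80 stood at 6.73, 4.29 and 6.89 in KO-labelled arrays and 7.60, 7.36 and 7.62 in WT arrays (difference -1.56, limma adjusted p = 0.348), with KO2 far below the rest, and the difference was -0.72 without KO2. Cd80 missed the study's threshold without any 1 WT array. Neither pair of groups overlapped. Dendritic cells carry both ligands, and all 8 dendritic cell markers and all 7 macrophage and granulocyte markers were below the table median on every array. The dendritic cell markers summed to 85.6 to 97.4 in KO-labelled and 87.6 to 95.5 in WT arrays on the linear scale. The part of such cells in the differences of Cd80 and Cd86 was not tested. Tnfrsf14, which encodes HVEM, the partner of BTLA and CD160, was higher at 8.27, 8.85 and 8.44 in KO-labelled arrays, against 8.08, 7.18 and 8.08 in WT arrays (difference 0.74, limma adjusted p = 0.322). Its groups did not overlap, but without WT2 the difference was 0.44 and missed the study's threshold, as it did without KO2 or KO3.

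Further inhibitory receptors and adaptors, which were not among the 8, differed in both directions. Of 13 tested, 6 were lower and 2 higher at the study's threshold, against 4.33% lower and 3.97% higher among all tested genes, with a median of -0.21. In limma 0 passed the adjusted threshold and 8 had an unadjusted p under 0.05, against 1379 to 1492 of all 10021 tested genes. The counts at the study's threshold were the same after quantile and median normalization. Klrc1, which encodes the NKG2A receptor, had the smallest p. It stood at 4.27, 4.02 and 3.61 in KO1, KO2 and KO3 and at 6.70, 5.50 and 5.36 in WT1, WT2 and WT3, with no overlap (difference -1.88, limma adjusted p = 0.0984). KO2 and KO3 were under the table median and KO1 only just at it.

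Tigit and Cd96, receptors that share nectin-family ligands with the activating receptor gene Cd226, were lower, with differences of -1.30 and -0.94 (limma adjusted p = 0.191 and 0.323), while Cd226 itself was higher by 1.08 (limma adjusted p = 0.0984). For each of the 3 the groups did not overlap. The value of Cd96 was -0.50 without KO3 and then missed the study's threshold, as it did without WT1 or WT3. Lair1, a collagen receptor, was at -1.13. The adaptor Lax1 was at -0.72 and missed the threshold without KO1, WT1 or WT3. Cd244a, a SLAM family receptor, was at -0.99, but only WT2 reached the table median, and the value was -0.49 without it and missed the threshold without any 1 KO-labelled array or WT2. Cd5, which dampens T cell receptor signals, and Cd101 were higher, by 1.12 and 1.39, with Cd5 at 0.75 without WT2. Cd101 stood at 6.16, 5.36 and 5.17 in KO-labelled arrays, against 4.19, 3.88 and 4.44 in WT arrays (limma adjusted p = 0.110), where only WT3 reached the table median.

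Of the costimulatory receptors 9 were tested, with 2 higher (3 after quantile normalization) and 1 lower at the study's threshold, against 3.97% and 4.33% of all tested genes, and a median of 0.56. Tnfrsf25, the death receptor that binds TL1A, rose, at 7.11, 6.93 and 7.03 in KO1, KO2 and KO3, against 5.14, 5.62 and 5.37 in WT1, WT2 and WT3 (difference 1.64, limma adjusted p = 0.0143). Its call was lost without KO3 (adjusted p = 0.0848), WT1 (0.0578) or WT3 (0.0780). Tnfrsf9, which encodes 4-1BB, stood at 6.47, 5.20 and 5.48 in KO-labelled arrays and at 8.16, 10.1 and 8.51 in WT arrays, far apart but short of the adjusted threshold (difference -3.20, limma adjusted p = 0.0677).

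Signalling proteins downstream of the receptors were all measured above the filter. Of 20 phosphatases and adaptors, 4 passed the study's threshold, all of them higher, where 3.97% of all tested genes were higher and 4.33% lower. The median was 0.09, and 1 gene was lower at that threshold after quantile or median normalization. With limma 0 passed the adjusted threshold and 5 had an unadjusted p under 0.05, against 1379 to 1492 of all 10021 tested genes. Ptpn6 and Ptpn11, which encode the phosphatases SHP-1 and SHP-2 that PD-1 and BTLA recruit, had differences of 0.15 and -0.04 with overlapping arrays. Pag1, an adaptor that holds the kinase CSK at the membrane, had the smallest p, at 6.55, 7.05 and 7.15 in KO-labelled and 5.50, 6.32 and 5.41 in WT arrays (difference 1.17, limma adjusted p = 0.156). Pag1 stayed past the study's threshold whichever single array was left out. Of the others past it, Dgka missed it without KO2, Rasa1 without KO2 or WT2, and Ubash3a without WT2.

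Transcription factors known to act on inhibitory receptor genes were tested for 13 genes, and at the study's threshold 2 were higher and 3 lower, against 3.97% higher and 4.33% lower among all tested genes, with a median of 0.02. In limma 0 passed the adjusted threshold and 5 had an unadjusted p under 0.05, against 1379 to 1492 of all 10021 tested genes. Tox, a nuclear factor known for its part in T cell exhaustion, had the smallest p, at 6.62, 6.67 and 6.86 in KO1, KO2 and KO3, against 6.26, 5.48 and 5.03 in WT1, WT2 and WT3. Its arrays did not overlap (difference 1.12, limma adjusted p = 0.197). Bcl6 was also higher (1.02), and Irf4 (-1.02), Eomes (-1.76) and Nfil3 (-0.97) were lower, each with a limma adjusted p between 0.256 and 0.331. Eomes was at -0.89 without KO3, which held its lowest value, and missed the study's threshold without any 1 WT array. Bcl6 missed it without KO2, KO3 or WT2, Irf4 without KO3 or WT2, and Nfil3 without KO2, WT2 or WT3.

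**Figure D4:**
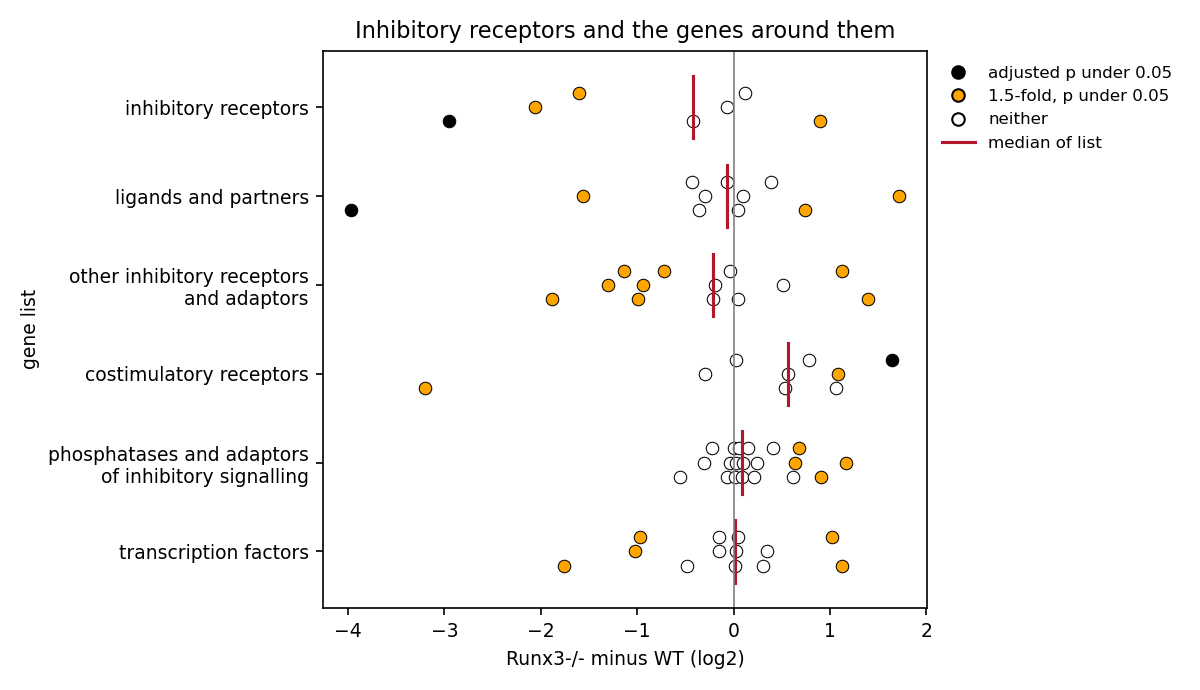
Difference between KO-labelled and WT arrays (log2) of each tested gene in 6 lists, with black points past an adjusted p of 0.05, orange points past the study's threshold only, white points past neither, and a red line for the median of the list. Lgals3 at -3.97 and Tnfrsf9 at -3.20 lie farthest to the left, and the medians run from -0.42 for the 7 tested inhibitory receptors to 0.56 for costimulatory receptors.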

How the data were processed

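Scanner files, per the labels and the methods of the study, were processed by the authors in Partek Genomics Suite with RMA (robust multichip average) and a correction for GC content. The deposited table holds a log2 value per row and array, without detection calls. The sources used here give no versions. RMA compresses low values, which makes fold changes of dim genes too small. The array medians lay between 4.15 and 4.35, and no 2 arrays were identical. Precision is limited by the number of arrays.

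The table had 35399 rows, of which 21789 had 1 gene symbol, 1621 several and 11989 none here. A gene was tested if its highest value reached the table median (4.26), which left 10021 genes and set 9917 aside. KO-labelled and WT arrays were compared with limma 3.58.1 (lmFit and eBayes, R 4.3.3), two-sided and without covariates, with Benjamini-Hochberg adjustment over all tested genes. Intervals are 95% intervals from the same fit. Replicates are biological repeats, and the methods of the study do not say whether each came from 1 mouse. The p-values measure spread between these repeats, of animals and cultures at once. Figures were drawn with matplotlib 3.10.9.

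The members and gene lists were chosen with earlier results of these data known. All members were named, and from each list the genes past the adjusted threshold (up to 2) or else the one with the smallest p. The other genes named from the lists, and Kir3dl2, were chosen after their values were seen. Of the listed genes, 6 had no row under that symbol. Gene names came from the platform annotation given for these probes, and promoter sequences from RefSeq (GRCm38.p6). Alternatives were the filter on dim genes, quantile or median normalization, averaging the rows of a gene, testing every row, a block for the replicate number, the G2/M mean as a covariate, robust priors with a trend, a linear model with no moderation, array weights, testing against 1.5-fold, leaving out each array, and leaving out WT2 together with KO2.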

Additional observations from a re-analysis of the deposited data

How the results depend on the processing

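The direction of Kir3dl1, Cd160, Btla and Havcr2 held in all 19 alternatives, and that of Pdcd1 in the 18 in which it was tested. Ctla4 kept its sign in 15 of 19 and Lag3 in 16 of 19. The number of receptors past an adjusted p of 0.05 was 1 and became 0 with no filter on dim genes, with the replicate number as a block (replicate block), in the unmoderated linear model and in the test against a 1.5-fold change, where 3, 4, 3 and 3 receptors had an unadjusted p under 0.05. In these settings Kir3dl1 had an adjusted p of 0.0714, 0.146, 0.270 and 0.0807. With array weights 3 receptors passed, as Cd160 (-1.80, adjusted p = 0.0123) and Btla (0.76, adjusted p = 0.0243) joined it. With 1 array left out the number ranged from 0 to 1, and 3 to 5 had an unadjusted p under 0.05. At the study's threshold 4 receptors passed, and 3 to 5 in every alternative that gives this count. The replicate numbers name the arrays and were not taken as pairs. Deviations of same-numbered arrays correlated at -0.131, -0.369 and -0.133. Those of differently numbered arrays ran from -0.452 to 0.441, so these values cannot decide whether the numbers are pairs.

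Over all tested genes, 63 passed the adjusted threshold, but 36 with no filter, 1 with the replicate block, 0 in the unmoderated model, 547 with array weights and 14 in the test against a 1.5-fold change. Without KO2, KO3, WT1, WT2 or WT3 there were 27, 9, 17, 26 and 11. At the study's threshold there were 832 genes, with 508 in the unmoderated model and 1258 without KO1. The share of genes past it that sets the background of the receptor counts moves with these numbers. With 3 arrays per group, a difference within the spread of Ctla4 or Havcr2 was not detectable, and levels below the table median have no order.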
